A study of Mus musculus with 17 samples.

Results

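The SLC25 mitochondrial carrier family was described in mouse hepatocytes by RNA-seq. Its members were all genes with a symbol that starts with Slc25a and with at least 10 expected counts in at least 5 of 11 libraries. These were 41 of the 48 genes with such a symbol, out of 55536 gene identifiers. The expected counts therefore chose the members, and the difference between the groups did not. The family was picked with the difference of Slc25a30 already known, so the values of that gene are a description and no independent support for anything. The hepatocytes were isolated with collagenase from livers of C57BL/6J mice aged 3 months with the genotype ApcDHep, a loss of Apc, the brake on β-catenin signalling, in hepatocytes. All mice of both groups had carried AAV8, a viral vector that reaches hepatocytes, with SaCas9 constructs for 1 month and had received tamoxifen (2 mg, 7 days). In 6 libraries, labelled DLK1DWRE and called WRE-edited here, the nuclease was aimed at a site bound by β-catenin that lies upstream of DLK1/DIO3, an imprinted locus. In 5 libraries, labelled ROSA26 and called Rosa26-edited here, it was aimed at Rosa26, a locus often used as a neutral target. No source used here gives the driver of the Apc deletion, the share of edited cells or the number of animals. The p-values thus speak of the variation among these libraries, which may be technical.

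SLC25 proteins sit mostly in the inner mitochondrial membrane and exchange nucleotides, phosphate, keto acids, amino acids, carnitine esters and cofactors between the cytosol and the matrix. Each carrier is a bundle of membrane helices built from a repeated module, and it opens in turn to either side of the membrane. In hepatocytes they serve the urea cycle, gluconeogenesis, fatty acid oxidation and the export of citrate for lipid synthesis.

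The library names carry the marks r770, r595 and r711, which are read here as 3 runs. The names do not say what these marks stand for. In r770 there were 3 libraries of each group. In r595 there were 1 WRE-edited library and 2 Rosa26-edited libraries, and in r711 2 WRE-edited libraries and no Rosa26-edited one. Totals were 20727036 to 38935135 expected counts per library. The share of mitochondrial ribosomal RNA was 2.29% to 3.00% in r595 and 19.0% to 29.1% in the other runs. As a check of the edit, Rian, a long non-coding RNA of the DLK1/DIO3 locus, had 48.7 to 113 CPM (counts scaled to library size with TMM factors) in WRE-edited libraries, against 171 to 405 in Rosa26-edited libraries, and its log2 fold change was -2.30 ± 0.26 (SE; edgeR's quasi-likelihood test, Benjamini-Hochberg adjusted p = 0.0188). Meg3, at the start of the same cluster, had a log2 fold change of -2.23 ± 0.45 and did not pass (edgeR adjusted p = 0.266). The library names of WRE-edited 4 (r711) and WRE-edited 6 (r595) carry the same number, and whether they share an animal is not stated. Summed marker genes of hepatocytes had 44814 to 54866 CPM in WRE-edited libraries and 45202 to 55638 CPM in Rosa26-edited libraries, so markers of the labelled cell type were abundant in every library.

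All 41 members could be tested, and 38 of them had at least 10 counts in all 11 libraries. Just inside the count threshold were Slc25a27 and Slc25a35, each with 10 counts in 8 libraries, of which 5 were WRE-edited and 3 Rosa26-edited. Slc25a29 reached 10 counts in 10 libraries. Just outside was Slc25a18, a mitochondrial glutamate carrier, which had 0 to 26 counts and reached 10 in 3 Rosa26-edited libraries and in 0 WRE-edited libraries. The others outside were Slc25a2 with 2 to 8 counts, Slc25a31 with 0 to 7, Slc25a43 with 0 to 6, the pseudogene Slc25a5-ps with 0 to 5, Slc25a41 with 0 to 1 and Slc25a54 with 0.

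Levels between members are compared in TPM, a unit scaled by gene length and library size. Slc25a5, an ADP/ATP exchanger of the inner membrane, had the highest level, with a mean of 153 TPM over the 11 libraries and a range of 126 to 199 TPM. Slc25a39, needed for glutathione import, had a mean level of 109.9 TPM, and Slc25a25, a calcium-regulated ATP-Mg/phosphate carrier, had 72.1 TPM. Slc25a5 was above Slc25a39, and Slc25a39 above Slc25a25, in all 11 libraries, although their ranges over libraries overlapped. The next in order were Slc25a3, the phosphate carrier, at 60.9 TPM, Slc25a47 at 58.9 TPM and Slc25a1, the citrate carrier, at 55.8 TPM. Slc25a3 was above Slc25a47 in only 6 of 11 libraries, so the order there did not go beyond the spread.

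The 5 most abundant members made up 53.0% of the summed TPM of the family. A mean level of at least 10 TPM was found for 16 members, a level of 1 to 10 TPM for 17 and a level under 1 TPM for 8. For each of the 40 pairs of neighbours in the order, the ranges over libraries overlapped. Members with the same substrate could differ widely in level. Slc25a13, or citrin, the liver form of the aspartate/glutamate carrier, had a mean level of 50.1 TPM, and its paralog Slc25a12, the form known from muscle and brain, had 4.33 TPM. The ADP/ATP exchangers Slc25a5 and Slc25a4 had 153 TPM and 1.05 TPM, a ratio within a library of 116 to 191 in WRE-edited and 124 to 196 in Rosa26-edited libraries. At the low end were Slc25a27, a relative of the uncoupling proteins known from brain, at 0.226 TPM, and Slc25a35, whose substrate is not settled, at 0.191 TPM. Small non-coding RNAs of the 7SL and 7SK families took 32.5% to 58.0% of the TPM of a library, so TPM is used here between genes and not between groups.

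**Figure D1:**
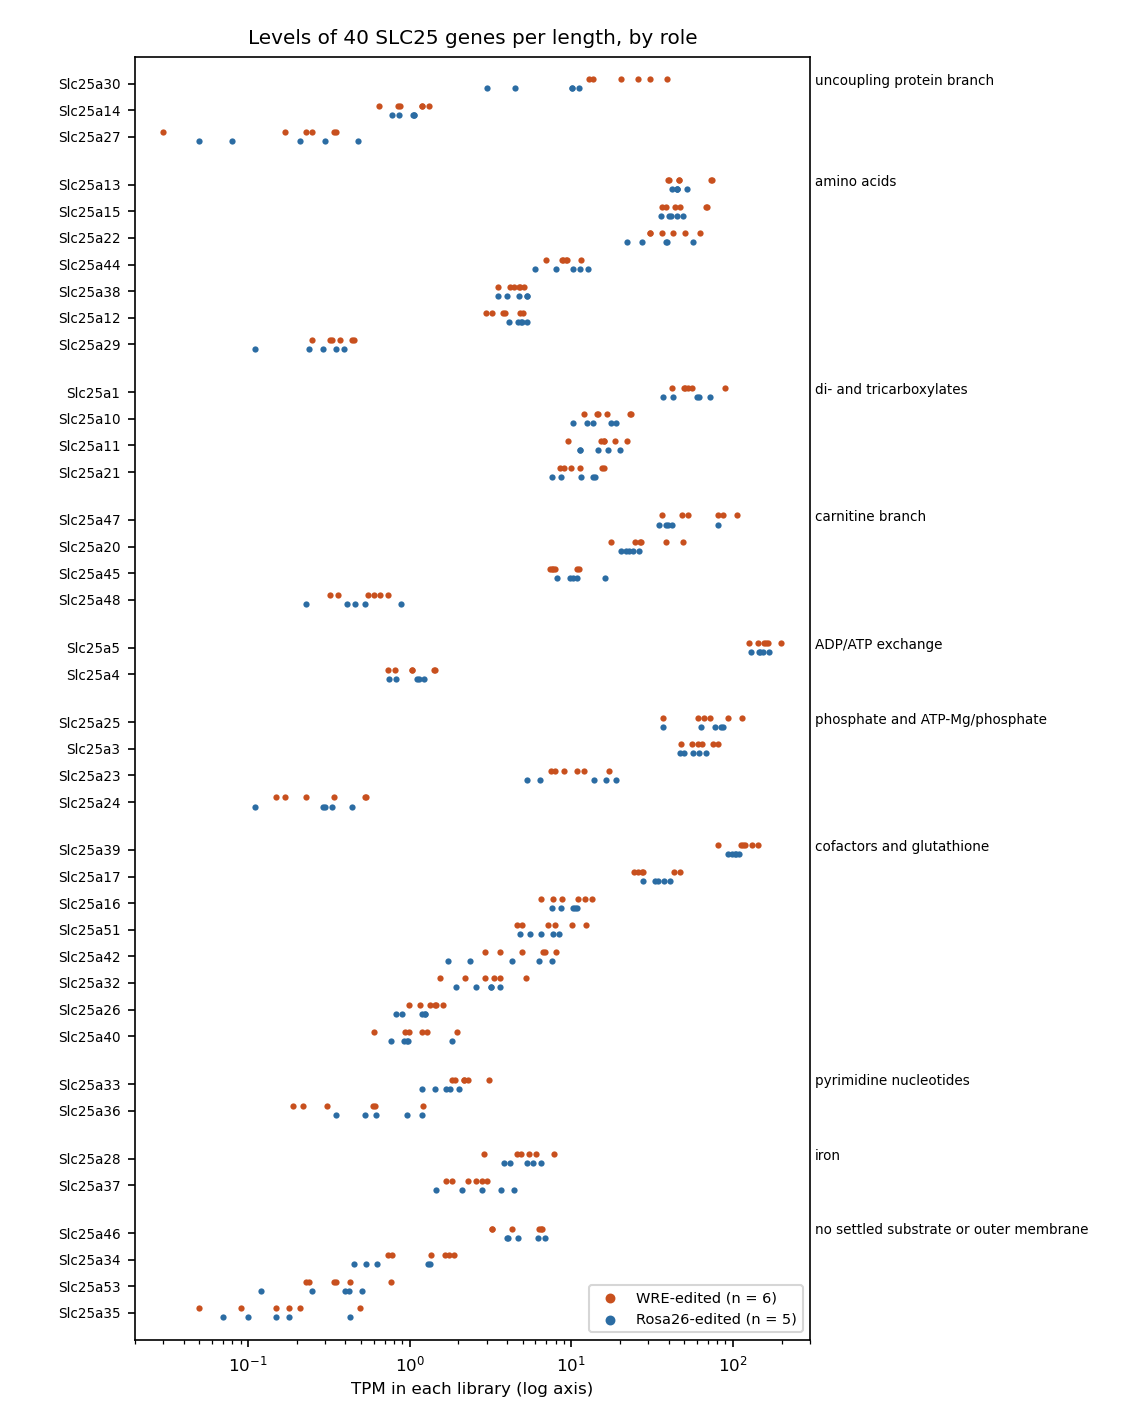
Level of 40 of the 41 SLC25 genes in TPM (log axis) in each library, grouped by role, with the 6 WRE-edited libraries above the 5 Rosa26-edited libraries in each row. Levels run over about 3 orders of magnitude, with mean levels of 153 TPM for Slc25a5 and 0.191 TPM for Slc25a35, and the points of Slc25a30 spread over 3.02 to 39.1 TPM.

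The comparison of WRE-edited with Rosa26-edited hepatocytes asks whether cutting the β-catenin site changed the carriers. Fold changes were fitted over 14393 genes with the run as a term, so they rest on r770 and r595. Of the 41 members, 0 passed in edgeR's quasi-likelihood test at an adjusted p under 0.05, and over all genes 0.00695% passed, which is Rian alone. At an unadjusted p under 0.05, 5 members were higher in WRE-edited hepatocytes, where the share over all genes was 4.95%, and 2 were lower, where it was 5.14%. The 5 higher were Slc25a30, Slc25a34, Slc25a10, Slc25a33 and Slc25a26, and the 2 lower were Slc25a12 and Slc25a36. On log2(TPM + 1) with limma these counts were 2 higher and 4 lower, and with the effective length of each gene as an offset they were 6 and 1. In these 2 fits 8.73% and 8.68% of all genes had such a p in either direction. DESeq2 called 2 members at an adjusted p under 0.05, Slc25a30 as higher and Slc25a12 as lower, and it called 0.6% of the genes it gave an adjusted p. All these counts of members take in Slc25a30 where it passed, and its difference was known beforehand.

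The median log2 fold change of the members was 0.09, with 27 positive and 14 negative values, and that of all genes tested was 0.01. Positive values made up 65.9% of the members and 51.7% of all genes. Among those with a geometric mean of 10 CPM or more, positive values made up 68% of the members and 60.3% of all genes. The median size of a member's log2 fold change was 0.20, and over all genes it was 0.19. A size above 0.5 was found for 7 members, or 17.1%, against 14.4% of all genes. The median size of the difference between r595 and r770 in Rosa26-edited libraries was 0.41 on the log2 scale. This run difference exceeded the fitted group difference in 31 of 41 members. Over all genes that median was 0.37, and the run difference exceeded the group difference in 9783 of 14393. The run difference sets 2 libraries against 3, and the fit draws on both groups in both runs. The sizes are therefore not like for like, and which of them is larger beyond noise was not tested. Within r595 alone the median size of the members' group difference was 0.42, and within r770 0.18. Over all genes these medians were 0.37 and 0.17. The members took 0.253% to 0.295% of the counts outside mitochondrially encoded genes in WRE-edited libraries of r770, against 0.267% to 0.294% in Rosa26-edited libraries of that run. In r595 they took 0.253% in the WRE-edited library, against 0.206% and 0.217% in the Rosa26-edited libraries, and in r711 0.314% and 0.354% in WRE-edited libraries.

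**Figure D2:**
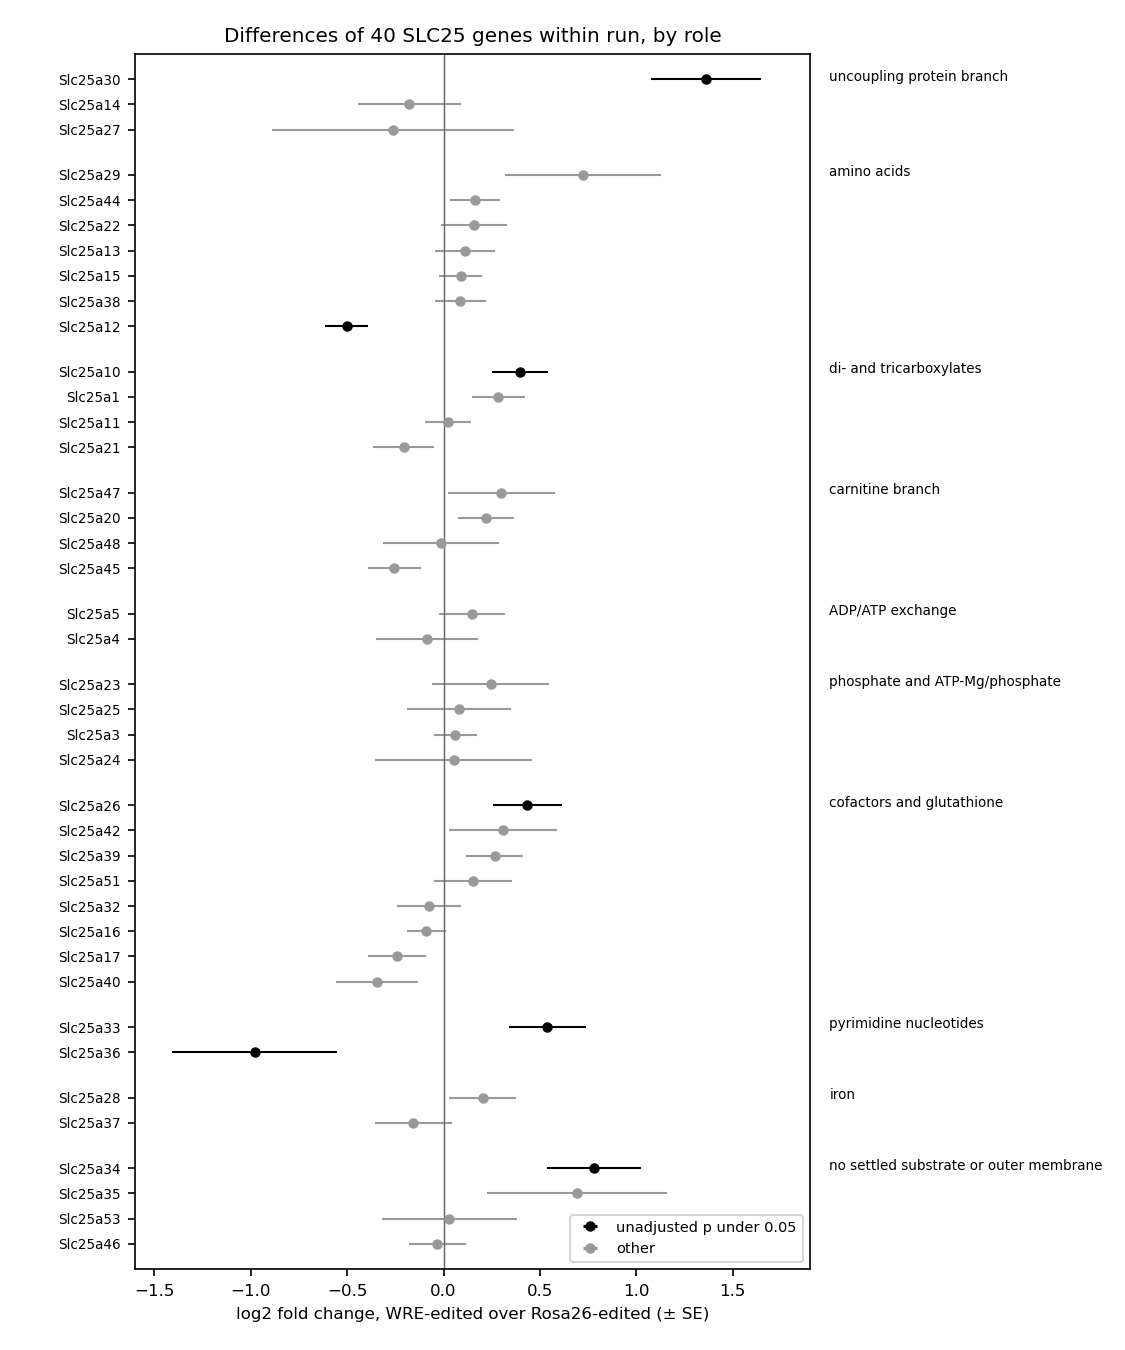
Log2 fold change (± SE) of 40 of the 41 SLC25 genes, WRE-edited over Rosa26-edited hepatocytes with the run as a term, grouped by role. Black points are the 7 genes with an unadjusted p under 0.05 in edgeR, of which Slc25a30 at 1.36 lies farthest to the right and Slc25a36 at -0.98 farthest to the left.

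Slc25a30 belongs to the branch of the uncoupling proteins and was first described as a mitochondrial carrier of kidney. In r770 it had 58.3, 103 and 59.2 CPM in WRE-edited libraries, against 31.7, 47.6 and 38.5 CPM in Rosa26-edited libraries. In r595 it had 52.2 CPM in the WRE-edited library, against 7.95 and 12.7 CPM in the Rosa26-edited libraries. The r711 libraries, both WRE-edited, had the levels 121 and 96.4 CPM. Every WRE-edited library was above every Rosa26-edited library, and the Rosa26-edited libraries of r595 were the lowest of all.

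The log2 fold change of Slc25a30 was 1.36 ± 0.28 (SE), or 2.57-fold, with an edgeR quasi-likelihood adjusted p of 0.262 and an unadjusted p of 0.000473. DESeq2 gave 1.37 with an adjusted p of 0.00106. The edgeR fit with no filter on low counts, which called 450 of 27704 genes, gave an adjusted p of 8.16e-15. Over the 23 alternatives the adjusted p went from that value to 0.998. The unadjusted p was below 0.05 in all 23, with log2 fold changes of 0.87 to 1.56. Without WRE-edited 6, the only WRE-edited library of r595, the log2 fold change was 0.90, since it then rests on r770. Without the run term it was 1.56, and 1.53 with WRE-edited 4 and 6 summed into 1 library.

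The difference itself was unequal between the runs, at 0.87 in r770 and 2.37 in r595 on the log2 scale. In an edgeR interaction fit the r595 difference exceeded that of r770 by 1.44 ± 0.47 (SE; unadjusted p = 0.0126, adjusted p = 0.692). Slc25a30 also varied most among the members of at least 1 TPM, with 13.0-fold between its highest and lowest TPM over libraries. The other members of its branch were low and overlapped between the groups. Slc25a14 had 0.877 to 2.05 CPM in WRE-edited libraries and 0.881 to 2.02 CPM in Rosa26-edited libraries. Slc25a27 had 0.132 to 1.14 CPM and 0.11 to 1.04 CPM in the same order.

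Slc25a12, the aspartate/glutamate carrier also called aralar, had 12.1, 10.8 and 11.3 CPM in WRE-edited libraries of r770, against 16.9, 15.5 and 14.5 CPM in Rosa26-edited libraries of that run. In r595 it had 10.9 CPM in the WRE-edited library, against 17.4 and 15.8 CPM in the Rosa26-edited libraries, and in r711 it had 12.9 and 13.2 CPM in WRE-edited libraries. Here every WRE-edited library was below every Rosa26-edited library, and the difference was close in the runs, at -0.46 in r770 and -0.60 in r595 on the log2 scale.

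The log2 fold change of Slc25a12 was -0.50 ± 0.11 (SE), or 0.706-fold, with an edgeR quasi-likelihood adjusted p of 0.281 and an unadjusted p of 0.000691. DESeq2 gave an adjusted p of 0.0161, and over the alternatives it went from 0.0161 to 0.998. With the effective length as an offset the log2 fold change was -0.28 and the unadjusted p 0.0731. The effective length that RSEM gave Slc25a12, which depends on the mix of its transcripts, was 1848 to 2290 bases in WRE-edited libraries, against 2105 to 3119 bases in Rosa26-edited libraries. Slc25a12 overlaps Gm13641 in RefSeq, a gene that was not among those tested, and no source used here says whether the counting used strand. Counts of Slc25a12 were fractional, from reads that RSEM divided between genes, in 2 of 11 libraries. Whether reads of Gm13641 entered its counts was not tested.

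Over all 11 libraries, 1 member lay wholly above in WRE-edited hepatocytes, Slc25a30, and the share over all genes was 0.153%. Likewise 1 lay wholly below, Slc25a12, with a share over all genes of 0.222%. Within each run, 4 members had every WRE-edited library above every Rosa26-edited library in both r770 and r595, namely Slc25a30, Slc25a34, Slc25a33 and Slc25a26, against 1.88% of all genes. Slc25a12 alone lay below in both runs, against 2.43% of all genes. The difference of Slc25a30 was known when the family was picked, so its place in these counts is no support. No other member lay wholly above over all 11 libraries.

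The promoters of 4 of these genes are shown as a description, with a motif of the TCF/LEF factors through which β-catenin acts. The nuclease was aimed at the site upstream of DLK1/DIO3 and not at these promoters, and both groups had the loss of Apc. A link between these motifs and the difference between the groups was not tested. Each is the RefSeq promoter (GRCm38.p6, minus strand, 250 bases before to 50 after the start that the promoter table uses), 5′ to 3′ along the gene. For Slc25a12 and Slc25a34 that start lies inside the gene's annotated span and not at its end. Capitals mark the TCF/LEF core TCAAAG, the nuclear receptor motif AGGTCA and the CCAAT box, each searched on both strands.
Slc25a30, chr14:75786988-75787287: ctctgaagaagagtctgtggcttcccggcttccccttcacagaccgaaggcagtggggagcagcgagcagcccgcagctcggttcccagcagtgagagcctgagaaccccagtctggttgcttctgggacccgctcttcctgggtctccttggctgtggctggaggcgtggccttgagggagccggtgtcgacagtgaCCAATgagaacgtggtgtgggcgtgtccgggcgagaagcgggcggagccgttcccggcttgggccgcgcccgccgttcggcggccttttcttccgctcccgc
Slc25a12, chr2:71367706-71368005: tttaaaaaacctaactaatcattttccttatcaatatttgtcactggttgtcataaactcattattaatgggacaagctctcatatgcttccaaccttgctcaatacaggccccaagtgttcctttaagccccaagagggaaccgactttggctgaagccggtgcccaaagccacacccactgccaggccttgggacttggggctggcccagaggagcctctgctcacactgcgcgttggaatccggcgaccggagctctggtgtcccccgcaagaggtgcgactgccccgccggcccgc
Slc25a33, chr4:149774218-149774517: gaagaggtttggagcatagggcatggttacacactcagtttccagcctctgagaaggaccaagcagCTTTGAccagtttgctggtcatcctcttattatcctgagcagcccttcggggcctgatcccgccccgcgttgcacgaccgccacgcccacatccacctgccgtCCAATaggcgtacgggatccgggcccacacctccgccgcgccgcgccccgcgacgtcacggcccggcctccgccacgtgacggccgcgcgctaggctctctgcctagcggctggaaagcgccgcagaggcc
Slc25a34, chr4:141623785-141624084: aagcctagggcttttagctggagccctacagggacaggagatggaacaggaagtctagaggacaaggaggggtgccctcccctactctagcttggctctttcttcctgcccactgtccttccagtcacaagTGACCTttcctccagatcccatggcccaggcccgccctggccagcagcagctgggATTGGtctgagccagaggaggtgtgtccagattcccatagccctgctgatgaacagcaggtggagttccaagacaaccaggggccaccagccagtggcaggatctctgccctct

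Counted from the first base shown, the Slc25a30 promoter held a CCAAT box at base 199 and neither of the other motifs, and the Slc25a12 promoter held none of the 3. The Slc25a33 promoter held the TCF/LEF core at base 67 and a CCAAT box at base 170. The Slc25a34 promoter held the nuclear receptor motif at base 132 and a CCAAT box at base 187. Of the 41 members, 32 had a promoter in the table, 42 promoters in all. The TCF/LEF core was in 9.52% of these, against 16.0% of all 32851 promoters, and its members were Slc25a11, Slc25a22, Slc25a28 and Slc25a33. The nuclear receptor motif was in 9.52% against 16.26%, and its members were Slc25a34, Slc25a39, Slc25a45 and Slc25a47. The CCAAT box was in 52.38% against 37.41%. A match is a description of these letters, not a bound site.

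Among the carriers of amino acids, 6 of 7 members had a positive log2 fold change, with a median of 0.11, and 0 passed in edgeR. Slc25a13 had 189, 163, 235, 257, 237 and 184 CPM in the 6 WRE-edited libraries, against 231, 217, 174, 123 and 130.1 CPM in the 5 Rosa26-edited libraries, a log2 fold change of 0.11 ± 0.16 (SE). The groups overlapped, with the Rosa26-edited libraries of r595 lowest. The ratio of Slc25a13 to Slc25a12 in TPM was 10.5 to 15.8 in WRE-edited libraries (median 13.6), against 7.95 to 11.1 in Rosa26-edited libraries (median 9.26). These ratios overlapped between 1 WRE-edited library, at 10.5, and 2 Rosa26-edited libraries, at 11.1 and 11.1. TPM ratios depend on the effective lengths that RSEM gave. For Slc25a12 this length was 1848 bases in that WRE-edited library, WRE-edited 1, and 2180 and 2105 bases in Rosa26-edited 1 and 2. The overlap is thus one of TPM and not of counts.

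Slc25a15, the ornithine carrier of the urea cycle, had 181 to 303 CPM in WRE-edited libraries and 138 to 247 CPM in Rosa26-edited libraries. Slc25a22, a glutamate carrier, had 97.4 to 169.2 CPM and 74.3 to 145 CPM in the same order. Slc25a44, which carries branched-chain amino acids, had a log2 fold change of 0.16 ± 0.13 (SE), and Slc25a38, a glycine carrier needed for haem synthesis, had 0.09 ± 0.13. Slc25a29, which carries basic amino acids, was near the detection limit, with 0.404 to 1.16 CPM in WRE-edited libraries (median 0.568), against 0.565, 0.366, 0.535, 0.740 and 0.330 CPM in Rosa26-edited libraries. Its log2 fold change was 0.72 ± 0.40 (SE; edgeR's quasi-likelihood adjusted p = 0.545), and the groups overlapped.

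The carnitine carrier Slc25a20, which brings acylcarnitines into the matrix, had 49.1 to 93.0 CPM in WRE-edited libraries and 39.7 to 63.1 CPM in Rosa26-edited libraries, a log2 fold change of 0.22 ± 0.15 (SE). Its relative Slc25a47, a carrier found mainly in liver, had 91.0, 177 and 132 CPM in WRE-edited libraries of r770, against 198, 109.6 and 79.3 CPM in Rosa26-edited libraries of that run. In r595 it had 117 CPM in the WRE-edited library, against 68.8 and 61.7 CPM in the Rosa26-edited libraries, and in r711 it had 205.5 and 149 CPM in WRE-edited libraries. The groups overlapped within r770, where Rosa26-edited 1 was the highest library and WRE-edited 1 was below Rosa26-edited 1 and 2. The log2 fold change was 0.30 ± 0.28 (SE; edgeR's quasi-likelihood adjusted p = 0.706), and leaving out 1 library moved it to between 0.05 without WRE-edited 6 (unadjusted p = 0.89) and 0.63 without Rosa26-edited 1 (unadjusted p = 0.0131). Slc25a45 had a log2 fold change of -0.26 ± 0.14 (SE) and Slc25a48, reported to carry choline, had -0.02 ± 0.30.

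Slc25a29 and Slc25a47 are neighbours on chromosome 12, at 108825878 to 108835876 and 108849833 to 108856815 (GRCm38.p6), with a gap of 14 kb. They end 616.6 kb and 595.7 kb before the start of Dlk1, the first gene of the locus downstream of the edited site. Neither passed in edgeR or in DESeq2, and both had positive log2 fold changes, where Rian, within the locus, had a negative one. The difference between these genes and Rian was not tested.

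Of the carriers of di- and tricarboxylates, 3 of 4 had a positive log2 fold change. Slc25a10, the dicarboxylate carrier that exchanges malate or succinate for phosphate, had 35.0 to 60.4 CPM in WRE-edited libraries (median 42.0), against 36.7, 31.6, 33.1, 32.4 and 38.6 CPM in Rosa26-edited libraries. The groups overlapped, and WRE-edited 6 was the highest library. The log2 fold change was 0.40 ± 0.14 (SE; edgeR's quasi-likelihood adjusted p = 0.441), and without WRE-edited 3 and 6 it was 0.07. Slc25a1, which exports citrate for lipid synthesis, had 70.9 to 115 CPM in WRE-edited libraries (median 95.7), against 79.8, 95.7, 105, 75.5 and 72.6 CPM in Rosa26-edited libraries, a log2 fold change of 0.28 ± 0.14 (SE), and of 0.13 without WRE-edited 6. The 2-oxoglutarate/malate carrier Slc25a11 had 0.02 ± 0.12 and the oxodicarboxylate carrier Slc25a21 had -0.21 ± 0.16.

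The ADP/ATP and phosphate carriers include the most abundant member, and 0 of these 6 had an unadjusted p under 0.05. Slc25a5 had 198 to 307 CPM in WRE-edited libraries (median 256), against 255, 317, 218, 159.6 and 199 CPM in Rosa26-edited libraries, a log2 fold change of 0.15 ± 0.17 (SE). Slc25a25 had 149 to 355 CPM (median 229.8) against 326, 151, 235, 139 and 181 CPM in the same order of groups, a log2 fold change of 0.08 ± 0.27. Both overlapped widely, and both changed sign in r770 alone. Slc25a3, Slc25a4, Slc25a23 and Slc25a24 had log2 fold changes of 0.06, -0.09, 0.24 and 0.05, each smaller than its SE.

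Among the 9 carriers of cofactors and glutathione, 5 log2 fold changes were positive and 4 negative. Slc25a26 brings S-adenosylmethionine into the matrix for methylation reactions. It had 2.28 to 3.86 CPM in WRE-edited libraries (median 2.96), against 2.47, 2.38, 2.64, 2.15 and 2.13 CPM in Rosa26-edited libraries. The WRE-edited libraries were above within r770 and within r595, and the r711 libraries were lowest among the WRE-edited. Its log2 fold change was 0.44 ± 0.18 (SE; edgeR's quasi-likelihood adjusted p = 0.456), and the unadjusted p was below 0.05 in 13 of 23 alternatives.

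Slc25a39 had 173 to 267 CPM in WRE-edited libraries (median 213), against 207, 202, 187, 158 and 153 CPM in Rosa26-edited libraries, a log2 fold change of 0.27 ± 0.15 (SE), and of 0.12 without WRE-edited 6. Its paralog Slc25a40, also linked to glutathione import, had a log2 fold change of opposite sign, -0.35 ± 0.21, at a level of 1.13 TPM. Slc25a17, the carrier of cofactors in peroxisomes, had -0.24 ± 0.15 and Slc25a51, the NAD+ carrier, had 0.15 ± 0.20. The coenzyme A carriers Slc25a42 and Slc25a16 had 0.31 ± 0.28 and -0.09 ± 0.10, and the folate carrier Slc25a32 had -0.08 ± 0.16.

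The pyrimidine nucleotide carriers, which supply the matrix with precursors of RNA and DNA, had opposite signs. Slc25a33 had 4.38 to 7.33 CPM in WRE-edited libraries (median 5.58), against 4.08, 5.16, 4.82, 2.37 and 3.71 CPM in Rosa26-edited libraries, a log2 fold change of 0.54 ± 0.20 (SE; edgeR's quasi-likelihood adjusted p = 0.441). Slc25a36 had 0.877 to 2.99 CPM in WRE-edited libraries (median 1.69), against 2.32, 3.84, 1.18, 1.52 and 3.97 CPM in Rosa26-edited libraries, a log2 fold change of -0.98 ± 0.43 (SE; edgeR's quasi-likelihood adjusted p = 0.469). Both overlapped over the 11 libraries. Within r770 Slc25a33 was apart and Slc25a36 was not, since Rosa26-edited 3 was below 2 of the 3 WRE-edited libraries.

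Of the mitochondrial iron importers, Slc25a28 (mitoferrin 2) had 7.39 to 13.7 CPM in WRE-edited libraries (median 10.7), against 10.3, 9.06, 10.2, 9.39 and 8.81 CPM in Rosa26-edited libraries, a log2 fold change of 0.20 ± 0.17 (SE), and of 0.02 without WRE-edited 6. Slc25a37 (mitoferrin 1), the form used most by erythroid precursors, had 12.2 to 18.5 CPM and 10.7 to 21.4 CPM in the same order, a log2 fold change of -0.16 ± 0.20. Its difference went opposite ways in the runs, at 0.11 in r770 and -0.80 in r595. The r595 difference was lower than that of r770 by an interaction of -0.91 ± 0.37 (SE; edgeR unadjusted p = 0.0348, adjusted p = 0.745).

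Among members with no settled substrate, Slc25a34 had 3.15, 6.07 and 3.61 CPM in WRE-edited libraries of r770, against 2.26, 2.84 and 1.57 CPM in Rosa26-edited libraries of that run. In r595 it had 5.13 CPM in the WRE-edited library, against 3.74 and 4.00 CPM in the Rosa26-edited libraries, and in r711 it had 5.85 and 5.49 CPM in WRE-edited libraries. The groups were apart within r770 and within r595, and they overlapped across runs. The log2 fold change was 0.78 ± 0.24 (SE; edgeR's quasi-likelihood adjusted p = 0.414), and without WRE-edited 2 it was 0.53. Slc25a35 had 0.69 ± 0.47 and Slc25a53 had 0.03 ± 0.35, both at levels under 1 TPM. Slc25a46, a protein of the outer membrane that takes part in mitochondrial fission and fusion, had 23.6 to 41.2 CPM in WRE-edited libraries (median 29.3), against 28.2, 35.6, 23.2, 33.3 and 31.3 CPM in Rosa26-edited libraries, a log2 fold change of -0.03 ± 0.15 (SE).

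**Figure D3:**
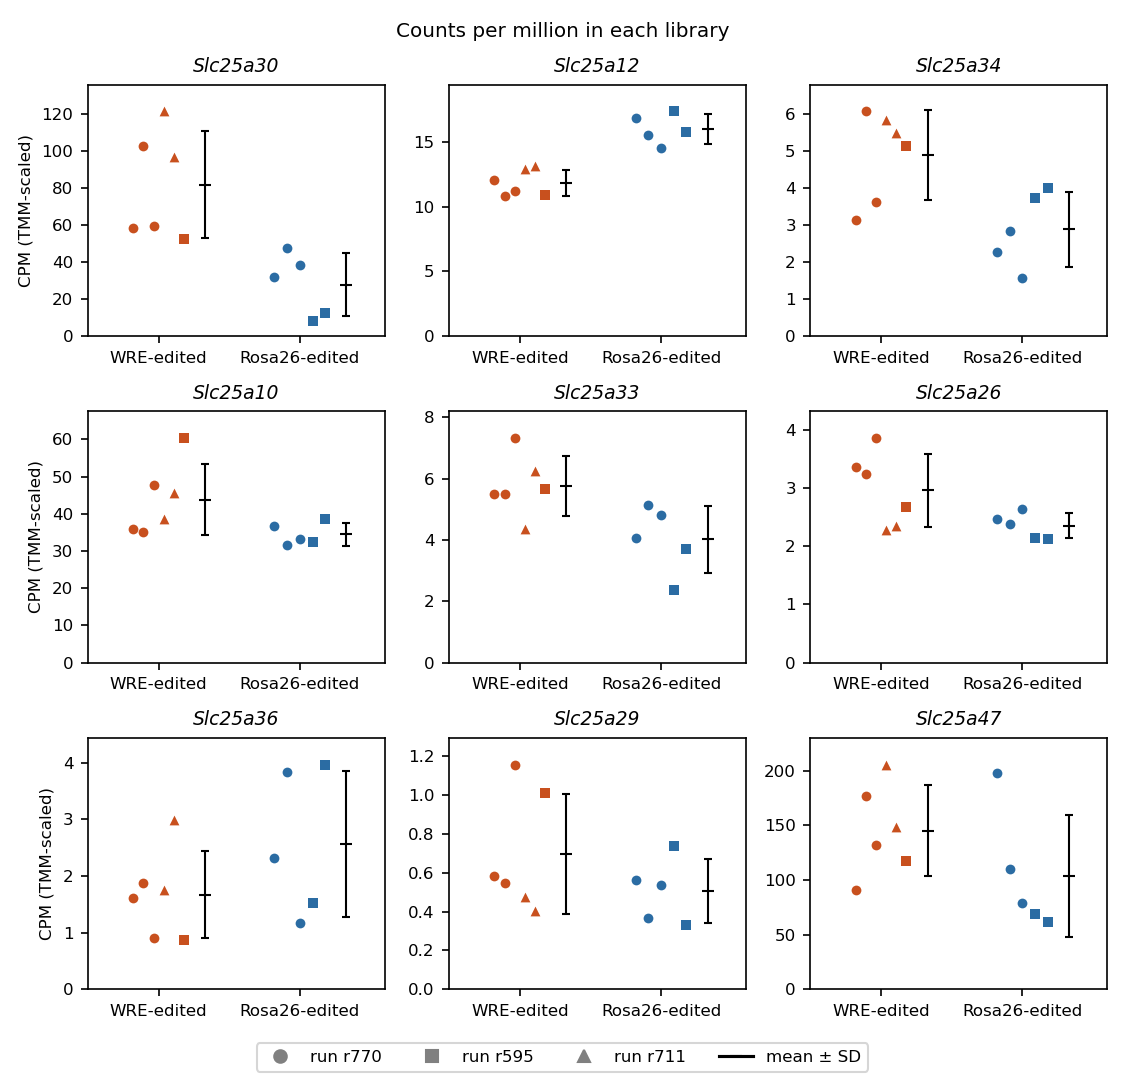
CPM (TMM-scaled) of 9 SLC25 genes in each library, with WRE-edited libraries left and Rosa26-edited libraries right in each panel, marker shape giving the run, and the bar the mean ± SD (n = 6 and 5). In the Slc25a30 panel every WRE-edited point, from 52.2 CPM up, is above the highest Rosa26-edited point at 47.6 CPM, and in the Slc25a12 panel every WRE-edited point, up to 13.2 CPM, is below the lowest Rosa26-edited point at 14.5 CPM.

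Across the family the runs did not give one direction. The sign of the difference was the same in r770 and r595 for 22 of 41 members, or 53.7%, against 60.9% of all genes. The median difference of the members was 0.02 in r770 and 0.28 in r595, where 1 WRE-edited library is set against 2 Rosa26-edited libraries. Over all genes the median difference was 0.004 in r770 and 0.042 in r595. At an unadjusted p under 0.05, the difference itself differed between the runs for 2 members, Slc25a30 and Slc25a37, against 6.52% of 14582 genes. At an adjusted p under 0.05 this was 0 members and 0% of all genes in edgeR, and DESeq2 was not run on the interaction.

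**Figure D4:**
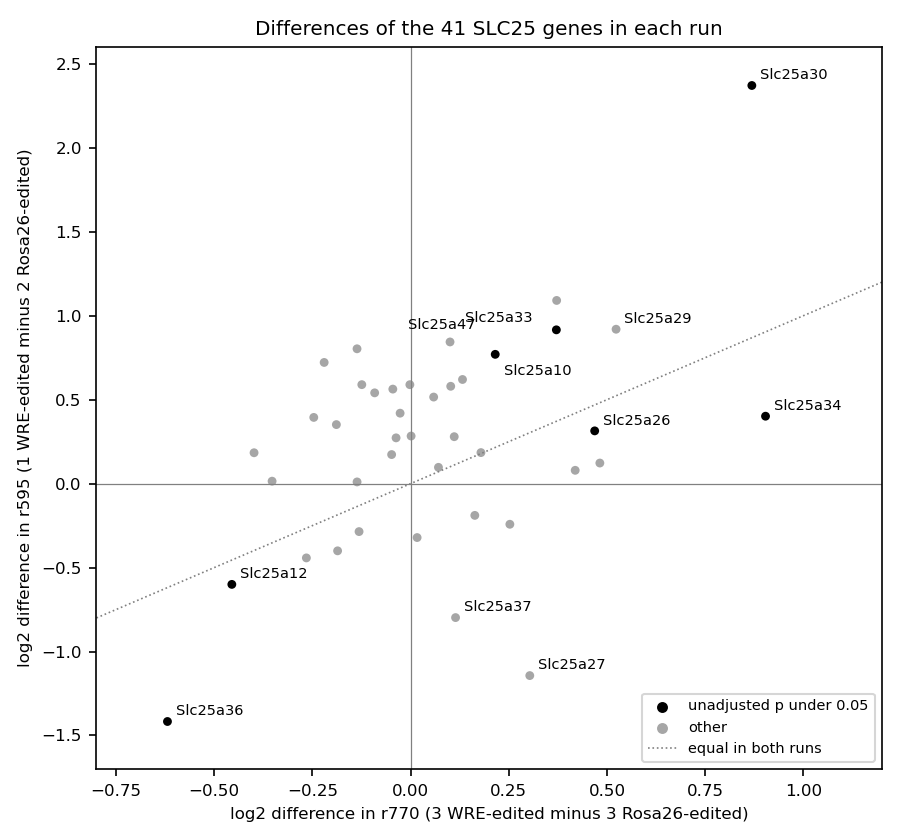
Log2 difference, WRE-edited minus Rosa26-edited, of each of the 41 SLC25 genes in r770 (x axis) and in r595 (y axis), where the dotted line marks equal differences. Slc25a30, at 0.87 in r770 and 2.37 in r595, lies alone at the upper right, and many of the grey points are near 0 in r770 and above 0 in r595.

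Other carriers of the family have symbols of another form. Mtch1 and Mtch2, carrier relatives of the outer membrane, had log2 fold changes of 0.21 ± 0.12 and -0.03 ± 0.13 (SE), and Ucp2, an uncoupling protein, had -0.09 ± 0.21. Ucp1 and Ucp3 were too low to test. Of 10 genes of the machinery that inserts carriers into the inner membrane, 0 had an unadjusted p under 0.05, and the smallest p values were those of Timm29 at 0.19 ± 0.11, Timm9 at -0.25 ± 0.22 and Timm10 at 0.21 ± 0.24.

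Among other mitochondrial transporters, whose count in each direction is left out here, Abcb8 was higher at an unadjusted p under 0.05, with 0.36 ± 0.13. Slc8b1, the sodium/calcium exchanger, had 0.55 ± 0.26 and did not reach that level. Of 18 enzymes that use the carriers' substrates, 3 were higher and 0 lower at that level, where the shares over all genes were 4.95% and 5.14%. Ass1 of the urea cycle had 589 ± 199 CPM in WRE-edited libraries and 490 ± 114 CPM in Rosa26-edited libraries (SD, n = 6 and 5), a log2 fold change of 0.50 ± 0.20 (SE). Cpt1a, which makes the acylcarnitines that Slc25a20 carries, had 0.37 ± 0.16, and Got2, the mitochondrial aspartate aminotransferase, had 0.29 ± 0.13. Of 7 regulators of mitochondrial genes 0 reached that level, with Tfam at -0.22 ± 0.11, Ppara at 0.26 ± 0.20 and Gabpa at -0.15 ± 0.14. In edgeR and in DESeq2 0 genes of these lists passed at an adjusted p under 0.05.

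The summed markers of other liver cells overlapped between the groups in every list. All 8 stellate cell and fibroblast markers had negative log2 fold changes, 2 of them at an unadjusted p under 0.05, with sums of 40.5 to 105 CPM in WRE-edited libraries and 71.2 to 101 CPM in Rosa26-edited libraries. The lowest sums were those of WRE-edited 3 and 6. Macrophage markers, all 6 negative, summed to 160 to 277 CPM in WRE-edited and 167 to 421 CPM in Rosa26-edited libraries, and endothelial markers, also all 6 negative, to 99.5 to 158 CPM and 96.8 to 165 CPM. For macrophage, endothelial, lymphocyte and neutrophil markers 0 genes had an unadjusted p under 0.05 in edgeR, and DESeq2 called 0. Only 2 of 6 lymphocyte and 4 of 5 neutrophil markers could be tested, all negative, with a median log2 fold change of -0.51 in each list. Of 5 cholangiocyte markers 2 could be tested, with log2 fold changes of -1.02 and 0.92, and 1 was higher at an unadjusted p under 0.05. Lymphocyte markers summed to 14.4 to 25.0 CPM and 16.8 to 41.3 CPM, erythroid markers to 7.80 to 10.8 CPM and 6.75 to 24.8 CPM, neutrophil markers to 5.35 to 7.03 CPM and 4.78 to 21.99 CPM, and cholangiocyte markers to 6.09 to 13.2 CPM and 7.06 to 24.1 CPM. Of 4 erythroid markers tested, 2 were lower and 1 higher at an unadjusted p under 0.05, with a median log2 fold change of -1.25, and DESeq2 called 1 as lower. No list had a marker at 0 in every library. Their part in the results above was not tested, and in such bulk samples fewer cells of a type and less RNA per cell cannot be told apart. Without WRE-edited 3 and 6 together, a choice made after seeing the data, 3 members were higher and 2 lower at an unadjusted p under 0.05. Over all genes 3.05% had such a p. In that fit the median of the members was -0.06, Slc25a30 had 1.04 and Slc25a12 had -0.45.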

How the data were processed

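Trizol was used to extract the RNA, per the labels. The submitters' processing notes name STAR 2.7.6a, RSEM 1.3.1 and the build GRCm38. No source used here gives the strand setting or the annotation version. The authors deposited 1 table per library with the expected count, the TPM and the effective length (another value, in bases) of each gene, per the file headers. The members and gene lists were chosen with earlier results of these data known. Of 55536 identifiers, 55450 matched a symbol, and positions came from RefSeq (GRCm38.p6). Runs were read from the library names.

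Expected counts were rounded and tested in R 4.3.3 with edgeR 4.0.16 (filterByExpr by group, which asks for 10 counts and a total of 15, then TMM scaling, and quasi-likelihood tests that were robust and two-sided) with run and group as terms and 7 residual degrees of freedom. P-values were adjusted by Benjamini-Hochberg over all 14393 genes tested, with a threshold of 0.05. The SE of an edgeR log2 fold change was calculated as its size divided by the square root of the test's F statistic. The 2 libraries of r711 entered the estimate of spread alone. Within-run differences are of mean log2 CPM with a prior count of 2. DESeq2 1.42.0 and limma 3.58.1 were alternatives, and the methods were tested on simulated data. Figures were drawn with Python 3.11.15 and matplotlib 3.10.9. Values per library are given for Slc25a30, Slc25a29 and Slc25a47, for the most abundant member of each role and for each member with an unadjusted p under 0.05, and up to 3 genes of each other list with the smallest p are named. Some genes that this takes in are not reported here. Every pair of replicates differed far beyond counting noise. The miRNA-seq libraries, the deposited normalized matrix and the design tables were not used for values.

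Of the members, 12 overlap another gene in RefSeq, 6 of them a tested gene (Slc25a25, Slc25a3, Slc25a11, Slc25a21, Slc25a26 and Slc25a35), and 17 had fractional counts, from reads that RSEM divided between genes. Fractional counts occurred in all 11 libraries for Slc25a5, Slc25a46, Slc25a37 and Slc25a33, so their values are uncertain in that respect.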

Additional observations from a re-analysis of the deposited data

How the results depend on the processing

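Over 23 alternatives, the named members Slc25a30, Slc25a34, Slc25a10, Slc25a33, Slc25a26, Slc25a12, Slc25a36, Slc25a1, Slc25a29 and Slc25a47 kept their sign. The count of members called was 2 in DESeq2, 1 in edgeR with no filter on low counts, and 0 in the fit reported and in all other alternatives. Slc25a30, known beforehand to differ, is in the counts of DESeq2 and of the fit with no filter. Of all genes, DESeq2 called 83 of 13823, the edgeR fit with no filter 450 of 27704, and the fit reported 1 of 14393. The count at an unadjusted p under 0.05 was 7 in the fit reported, where the share over all genes was 10.1%. It was 3 in r770 alone, with a share of 3.08%. When each library was left out in turn it was 4 to 11. The 4 came without WRE-edited 3 (5.56% of all genes) or without WRE-edited 6 (4.24%), and the 11 without Rosa26-edited 3 (13.8%). The median of the members, 0.09, was 0.18 without the run term, -0.031 on log2(TPM + 1) and -0.058 without WRE-edited 3 and 6.

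Named members whose log2 fold change turned sign had values of at most 0.27 in size in the fit reported. In r770 alone Slc25a5 had -0.028, Slc25a13 -0.074 and Slc25a25 -0.14, and on log2(TPM + 1) they had -0.021, -0.084 and -0.062. Without WRE-edited 3 and 6 these 3 had -0.19, -0.24 and -0.36, Slc25a39 had -0.058 and Slc25a28 -0.068. Without the run term Slc25a46 had 0.015. When each library was left out in turn, Slc25a5 had -0.040 to 0.28, Slc25a13 -0.086 to 0.22, Slc25a25 -0.15 to 0.31 and Slc25a46 -0.21 to 0.11. The cause was not tested.

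Replicate numbers were not used as pairs in the fit reported. In r770, the run where numbers 1 to 3 occur in both groups, deviations of same-numbered libraries correlated at 0.09, -0.25 and -0.10. With 3 libraries per group such values cannot decide whether the samples were paired. Numbers 4 and 5 lie in r711 for WRE-edited and in r595 for Rosa26-edited libraries. With the replicate block beside the run term the effect rests on r770, and 3 members had an unadjusted p under 0.05, against 4.2% of all genes. In that fit Slc25a30 had 0.87, and Slc25a5, Slc25a13 and Slc25a25 had -0.044, -0.093 and -0.12. Members under 10 CPM had a median SE of 0.27, against 0.15 for the others.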
